A study of Mus musculus with 4 samples.

Results

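The genes described here are Myc and 47 others whose products transcribe ribosomal RNA genes, modify and cut the transcript and build the ribosomal subunits in the nucleolus, 48 of the 17762 genes listed in at least 1 library. They were taken by symbol from a list drawn up by function, without a threshold on any value, and each was placed at 1 of 7 assembly steps. The RNA came from intestinal adenomas of C57BL/6 mice aged 110 days. Every animal carried ApcMin, a truncating mutation of the Apc tumour suppressor under which many intestinal adenomas form. The 2 WT libraries have the genotype ApcMin Strap WT, and the 2 KO libraries ApcMin Strap KO, which the series' design text writes StrapIEKO. Strap encodes a WD-repeat protein that binds TGF-beta receptors and RNA-binding complexes. The sources used here do not give the Cre driver, the deleted exons or the sex of the animals, and the labels do not say that libraries came from separate animals. All p-values therefore measure the spread between these libraries alone.

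Ribosome assembly begins when RNA polymerase I copies the rDNA repeats into a long precursor in the nucleolus. Small nucleolar ribonucleoproteins (snoRNPs) modify it, with box C/D particles methylating ribose and box H/ACA particles converting uridine to pseudouridine. The small subunit processome folds and cuts the precursor to release the 40S subunit, and a separate series of factors matures the 60S subunit before export. Myc is a transcription factor that stimulates all of these steps in growing cells, and in intestinal tumours with mutant Apc it is a target of Wnt signalling. The libraries hold polyadenylated RNA, so ribosomal RNA itself was not measured.

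Strap, the targeted gene, had 157 and 112 CPM (counts scaled to library size, with edgeR's TMM factors) for WT (replicate 1, then 2) against 20.5 and 24.8 CPM for KO. Its log2 fold change of −2.57 (SE 0.26, n = 2 and 2) had an adjusted p of 0.0942 with edgeR and 8.42e-14 with DESeq2, and 16.9% of the WT level was left. Each library held 14084831 to 15640941 expected counts. The edgeR test called 1 of 12769 genes higher in KO (0.00783%) and 0 lower, whereas DESeq2 called 1.83% higher and 3.14% lower. Without WT replicate 2 edgeR called 72 genes higher and 300 lower, a fit in which the spread comes from the KO libraries alone and the lone WT library is assumed to vary like them. The label names colon adenoma, but 12 small-intestinal markers summed to 22870.0 and 9686 CPM (WT) against 19692 and 17049 CPM (KO), with WT replicate 2 the low library. The 12 genes listed as colon markers summed to 859.7 and 379.8 CPM (WT) against 499.6 and 428 CPM (KO). That list wrongly holds Muc6, a gastric-type mucin, which reached 404 CPM in WT replicate 1 alone and is much of that library's sum. Among the others, Slc26a3 (255 and 148 against 129 and 177 CPM) and Car4 (157 and 107 against 323 and 220.2 CPM) were well expressed. Aqp8, Hoxb13, Hoxd13 and Insl5 were each under 1 CPM in all 4 libraries. Of the 7 tested genes of the list, DESeq2 called 1 higher and 2 lower, beside 1.83% and 3.14% of all tested genes. Both replicates 1 held Xist RNA, at 968 and 197 CPM, and both replicates 2 held RNA of the Y-linked Ddx3y, at 39.1 and 33.3 CPM. Any fit without 1 library therefore sets a group of 1 replicate number against a group holding both. KO replicate 1 also differed from the others by transcript length, as given below for the members.

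Most members had somewhat higher levels in KO, and none passed the edgeR test over all genes. Of the 48, 42 had a log2 fold change above 0 and 6 below, against 50.3% above 0 among all 12769 tested genes and 56.1% among the 7282 tested genes within the members' range of mean level. Their median log2 fold change was 0.29, with quartiles of 0.12 and 0.52 and a range from −0.15 to 1.12, beside 0.0037 for all tested genes and 0.06 for the genes at that level. In 29 members the KO libraries were both higher than either WT library and in 0 both were lower, while 25.5% of all tested genes, and 31.7% of those at the members' level, had both KO libraries above, and 24.6% and 20.8% had both below. Relative to each gene's mean over the 4 libraries, the median log2 level of the members was −0.10 and −0.23 in WT and 0.22 and 0.10 in KO. With edgeR 0 members were called after Benjamini-Hochberg adjustment, the smallest adjusted p being 0.211. At an unadjusted p under 0.05 there were 10 higher members and 0 lower, beside 7.08% and 8.69% of all tested genes. Among the 7282 tested genes at the members' level, 725 were higher and 477 lower at that p. DESeq2 called Nhp2 and Rrp9 higher and 0 members lower, beside 1.83% and 3.14% of all tested genes. With limma 0 were called. In bulk RNA, more cells of a type and more RNA per cell cannot be told apart.

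**Figure D1:**
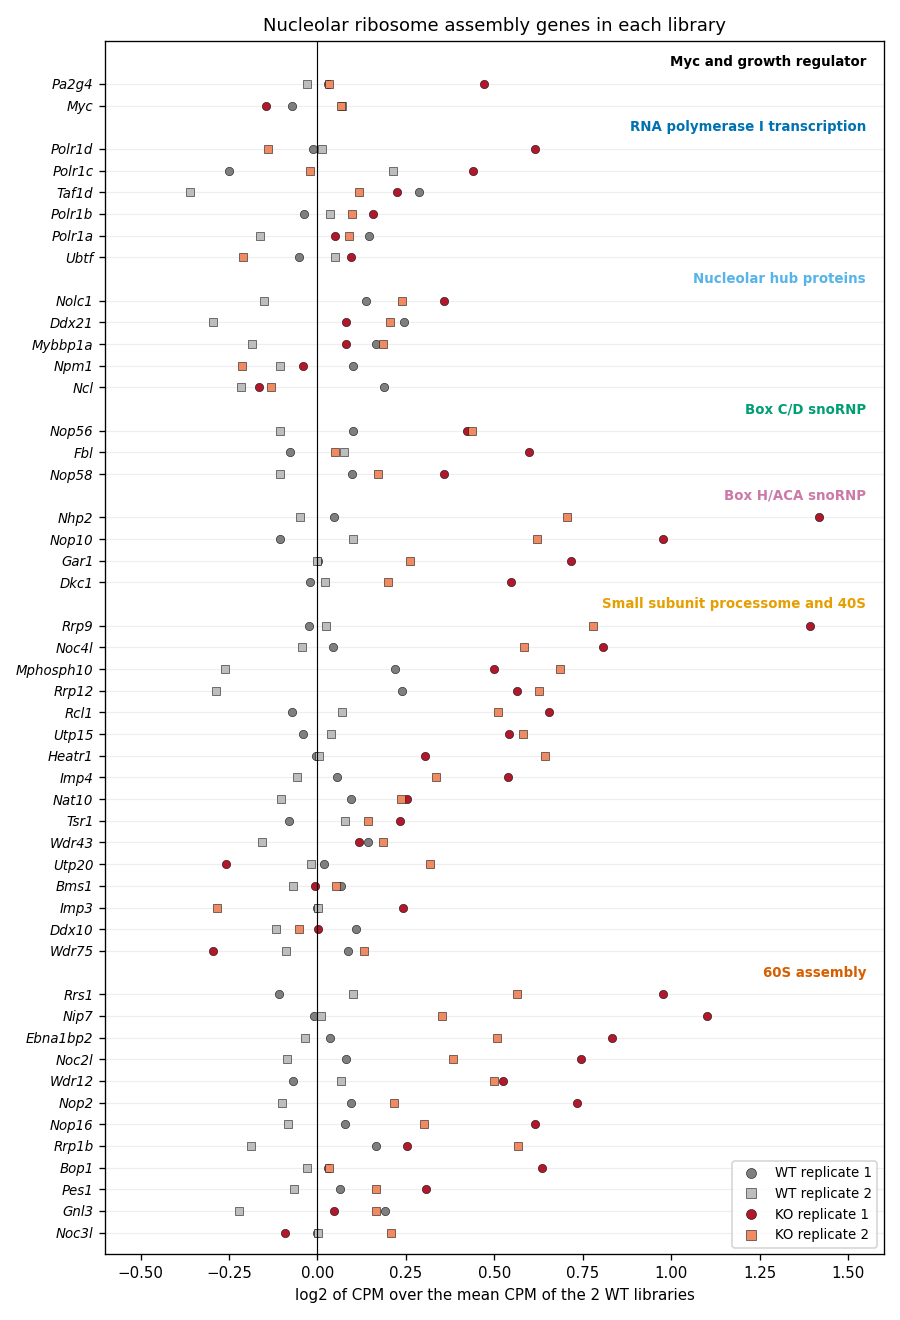
Level of each of the 48 members in each library, as log2 CPM relative to the member's mean CPM over the 2 WT libraries. Each row is a member, grouped by assembly step, and each point is a library. In most box H/ACA, 40S and 60S members both KO libraries lie above both WT libraries. Myc and 5 of the 6 RNA polymerase I genes overlap between the groups.

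Other readouts of these libraries are given here beside the members, and they did not share a single order of the libraries. The 20 proliferation genes, all listed in all 4 libraries, summed to 1253 and 2000.1 CPM (WT) against 2016 and 1737 CPM (KO), so WT replicate 1 was the lowest of the 4 and KO replicate 1 narrowly the highest. Of 14 T and natural killer cell markers 13 were found, and these summed to 69.7 and 56.4 CPM (WT) against 38.0 and 336 CPM (KO). The 10 epithelial markers, all listed throughout, summed to 13337 and 15135 CPM (WT) against 15235 and 11449 CPM (KO), with no separation of the groups in this sum. In 2 of the 10 both KO libraries were below both WT libraries and in 0 above, beside 24.6% and 25.5% of all tested genes. DESeq2 called 1 of the 10 lower and 0 higher, beside 3.14% and 1.83%. The 13 markers of secretory lineages summed to 12991 and 33951 CPM (WT) against 15207 and 13450.0 CPM (KO), with WT replicate 2 the highest. DESeq2 called 1 of them higher and 2 lower, beside 1.83% and 3.14% of all tested genes. WT replicate 2, which was also low in small-intestinal markers, was the library with the lowest median level of the members. Endothelial markers, 8 of 9 found, summed to 46.1 and 5.52 CPM (WT) against 3.62 and 3.61 CPM (KO). Of the 3 tested, DESeq2 called 1 lower and 0 higher, beside 3.14% and 1.83% of all tested genes. Of the defining markers, Kdr was not listed in either KO library, and Cd2 was not listed in WT replicate 2 or KO replicate 1. Markers of B and plasma cells summed to 239 and 238 CPM (WT) against 240.2 and 261 CPM (KO), those of macrophages and neutrophils to 23.7 and 49.6 CPM (WT) against 43.5 and 49.1 CPM (KO), and those of fibroblasts and smooth muscle to 31.6 and 17.8 CPM (WT) against 11.2 and 17.3 CPM (KO). Of the 8, 12 and 13 markers found for these last lists, only 3, 4 and 4 were among the genes tested. KO replicate 1 did not list 3, 6 and 4 of the markers found. The part of these cell types and regions in the members' levels was not tested. Summed over the 48 members, the level was 3817 and 3368 CPM (WT) against 4351 and 3894 CPM (KO), so the KO libraries were the 2 highest, the lower KO value exceeding the higher WT value only narrowly.

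Myc did not differ detectably between the genotypes. The gene (chr15:61985341-61990361, GRCm38.p6, the build also named mm10) had 64.5 and 71.2 CPM (WT) against 61.3 and 71.0 CPM (KO), and the groups overlapped. Its log2 fold change was −0.04 (SE 0.19), with an edgeR adjusted p of 0.946. Pa2g4 encodes EBP1, a growth regulator that binds ribosomes and nucleolar RNA. It had 205 and 197 CPM (WT) against 279 and 206 CPM (KO), so that only KO replicate 1 stood clear of the others, and its log2 fold change was 0.27 (SE 0.24, adjusted p = 0.62).

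The 6 genes of RNA polymerase I transcription lay close to their WT levels. The median was 0.15 and 5 were nominally higher. In 1, Polr1b, both KO libraries were above both WT libraries, beside 25.5% of all tested genes. Polr1d, a subunit shared by RNA polymerases I and III, had 91.7 and 93.2 CPM (WT) against 142 and 83.9 CPM (KO), where replicate 1 was the highest and replicate 2 the lowest of the 4 (log2 fold change 0.29, SE 0.29). In Polr1c, also shared with RNA polymerase III, KO replicate 1 was likewise the highest and KO replicate 2 lay between the WT libraries, at 18.7 and 25.8 CPM (WT) against 30.1 and 21.9 CPM (KO). The second largest subunit, Polr1b, was almost flat at 33.0 and 34.7 CPM (WT) against 37.7 and 36.2 CPM (KO) (log2 fold change 0.13, SE 0.19). The largest subunit Polr1a, the rDNA-binding factor Ubtf and the promoter factor Taf1d overlapped between groups, with log2 fold changes of 0.07, −0.05 and 0.17. Without KO replicate 1 the median of the step was 0.04, and without WT replicate 2 it was 0.10.

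The hub proteins are abundant nucleolar proteins that organise the compartment and bind precursor RNA and histones. Their median log2 fold change was 0.13 and 3 of 5 were nominally higher. In 1 both KO libraries were above both WT libraries, beside 25.5% of all tested genes. That 1 was Nolc1, a scaffold for snoRNPs, with 101 and 82.7 CPM (WT) against 118 and 108 CPM (KO) (log2 fold change 0.30, SE 0.20). Mybbp1a, a Myb-binding regulator of rDNA transcription, had 197 and 154 CPM (WT) against 186 and 199.9 CPM (KO). The helicase gene Ddx21 had 174 and 119.8 CPM (WT) against 155 and 169 CPM (KO), and in both genes WT replicate 2 was the low library. Ncl and Npm1 encode nucleolin and nucleophosmin, which shape the nucleolus and chaperone assembling particles. Ncl had 603 and 456 CPM (WT) against 473 and 483 CPM (KO), and Npm1 545 and 473 CPM (WT) against 495 and 439 CPM (KO), both overlapping, with log2 fold changes of −0.15 and −0.12. The hub median turned to −0.08 without WT replicate 2, became 0.30 without WT replicate 1 and 0.08 without KO replicate 2.

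All 3 box C/D core genes were nominally higher in KO, with a median of 0.35. Nop56, which joins the particle to its guide RNA together with Nop58, had 98.2 and 85.2 CPM (WT) against 123 and 124 CPM (KO), and its 2 KO libraries were nearly equal (log2 fold change 0.43, SE 0.19, edgeR adjusted p = 0.348). Nop58 had 90.7 and 78.8 CPM (WT) against 109 and 95.4 CPM (KO). Fbl, the methyltransferase fibrillarin, had 91.2 and 101 CPM (WT) against 146 and 99.6 CPM (KO), and the groups overlapped because KO replicate 2 stayed within the WT range. Without KO replicate 1 the median of the 3 genes was 0.18.

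The box H/ACA core had a median of 0.66, the highest of the 7 steps in the fit without a length term. In all 4 of its genes both KO libraries were above both WT libraries, beside 25.5% of all tested genes. Nhp2 (chr11:51619773-51623718), which binds the guide RNA, had 41.5 and 38.9 CPM (WT) against 107 and 65.5 CPM (KO), 2.15 times the WT level (log2 fold change 1.10, SE 0.28). It did not pass with edgeR (adjusted p = 0.211) and passed with DESeq2 (adjusted p = 0.0329). Nop10 (chr2:112261926-112262898), a small protein that holds the catalytic subunit, had 45.9 and 52.9 CPM (WT) against 97.3 and 76.0 CPM (KO) (log2 fold change 0.81, SE 0.22, edgeR adjusted p = 0.226). In both genes KO replicate 1 was well above KO replicate 2. Gar1 had 24.1 and 24.0 CPM (WT) against 39.5 and 28.8 CPM (KO), and Dkc1, the pseudouridine synthase dyskerin, 43.4 and 44.6 CPM (WT) against 64.3 and 50.5 CPM (KO). The WT libraries of Gar1 and Dkc1 were almost equal, and their log2 fold changes were 0.51 and 0.38. The RNAs of Nop10, Nhp2 and Gar1 are short, and adding transcript length to the fit lowered the median of the step to 0.37, below the 0.49 of 60S assembly and close to the 0.36 of the small subunit. Leaving out KO replicate 1 lowered it to 0.45.

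Among the 16 genes of the small subunit processome and 40S maturation, 14 were nominally higher, and the median was 0.34. In 10 both KO libraries were above both WT libraries, beside 25.5% of all tested genes. Rrp9 (chr9:106477309-106485415), the U3 snoRNP-specific protein, had 15.1 and 15.6 CPM (WT) against 40.2 and 26.3 CPM (KO). This was 2.17 times the WT level (log2 fold change 1.12, SE 0.28), with an adjusted p of 0.212 by edgeR and 0.0499 by DESeq2. Noc4l, which acts in nuclear export of the 40S precursor, had 29.4 and 27.6 CPM (WT) against 49.9 and 42.7 CPM (KO) (log2 fold change 0.70, SE 0.20, edgeR adjusted p = 0.238). Rcl1, a processome component related to RNA cyclases, had 26.2 and 28.9 CPM (WT) against 43.4 and 39.3 CPM (KO), with the replicates of each genotype close together (log2 fold change 0.58, SE 0.20). The other members reached log2 fold changes from −0.07 (Wdr75) to 0.60 (Mphosph10), and the following were singled out after their values were seen. Utp15, of the UTP-A subcomplex, had 26.9 and 28.5 CPM (WT) against 40.4 and 41.4 CPM (KO), and in Heatr1, a very long member of that subcomplex, the levels were 43.2 and 43.5 CPM (WT) against 53.6 and 67.8 CPM (KO). These were genes in which KO replicate 2, not replicate 1, was the highest library. The U3 partners Imp3 and Imp4 parted. Imp4 had 44.4 and 41.0 CPM (WT) against 62.0 and 53.9 CPM (KO), whereas Imp3 had 40.8 and 40.9 CPM (WT) against 48.3 and 33.6 CPM (KO), with KO libraries on either side of WT. The log2 fold changes of Imp3 (0.00) and Bms1 (0.02), a GTPase of the processome, changed sign with the scaling. Rrp12, an export factor of the 40S precursor, had 26.8 and 18.6 CPM (WT) against 33.5 and 35.0 CPM (KO), and Mphosph10, which binds Imp3 and Imp4, 22.9 and 16.4 CPM (WT) against 27.8 and 31.6 CPM (KO). In both, WT replicate 2 was the lowest library and KO replicate 2 the highest. Nat10, the RNA acetyltransferase, and Tsr1 did not overlap between the groups either, at log2 fold changes of 0.24 and 0.19. Utp20 (0.06), Wdr43 (0.15), Wdr75 (−0.07) and the helicase gene Ddx10 (−0.02) overlapped.

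All 12 genes of 60S assembly were nominally higher in KO, with a median of 0.48. In 10 both KO libraries were above both WT libraries, beside 25.5% of all tested genes. Rrs1 (chr1:9545408-9547455), which brings the 5S particle into the 60S precursor, had 24.1 and 27.9 CPM (WT) against 51.2 and 38.4 CPM (KO) (log2 fold change 0.78, SE 0.23, edgeR adjusted p = 0.249). Ebna1bp2, an early 60S scaffold, had 41.2 and 39.2 CPM (WT) against 71.6 and 57.1 CPM (KO) (log2 fold change 0.68, SE 0.21, edgeR adjusted p = 0.254). Noc2l, the counterpart of a yeast factor that travels with 60S precursors, had 100.3 and 89.4 CPM (WT) against 159 and 124 CPM (KO) (log2 fold change 0.57, SE 0.22). In all 3 genes the KO libraries stood above WT, with replicate 1 the higher. Noc2l shares 598 of its 2867 annotated exon bases with Samd11 on the opposite strand, and the sources used here do not state strandedness, so part of its count could belong to that gene. The PeBoW complex, which is needed to process the 60S precursor, consists of Pes1, Bop1 and Wdr12. Pes1 had 81.1 and 74.2 CPM (WT) against 96.0 and 87.1 CPM (KO), Bop1 60.2 and 57.7 CPM (WT) against 91.5 and 60.3 CPM (KO), and Wdr12 15.3 and 16.9 CPM (WT) against 23.2 and 22.8 CPM (KO). None of the 3 overlapped between groups, though KO replicate 2 exceeded the higher WT library of Bop1 by very little. Nip7, a late factor of 60S precursor processing, had 16.5 and 16.7 CPM (WT) against 35.7 and 21.2 CPM (KO), with KO replicate 1 far above the rest. Nop2, an rRNA methyltransferase, Nop16 and Rrp1b had log2 fold changes of 0.50, 0.47 and 0.42 without overlap. The groups overlapped in Gnl3, which encodes nucleostemin, and in Noc3l, with log2 fold changes of 0.11 and 0.07.

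KO replicate 1 differed from the other libraries by transcript length, which bears on any comparison of short and long members. Over all tested genes, the median log2 fold change fell stepwise from 0.43 for transcripts up to 1000 bases to −0.34 for those above 7000 bases. For KO replicate 1 against WT replicate 1 these medians were 0.70 and −0.59, and for replicates 2 they were 0.11 and −0.06. For KO replicate 1 against KO replicate 2 they were 0.52 and −0.33. WT replicate 2 against WT replicate 1 gave 0.15 and −0.17, so the WT libraries also differed by length. Of the members, 41 lay above the median of all genes of their own length class, by a median of 0.28. When a smooth length term per library was added to the edgeR fit, an alternative chosen after seeing the data, the median over members was again 0.29. In that fit 40 of 48 were above 0 (48.7% of all tested genes), in 33 both KO libraries were above both WT libraries (24.8%), and in 2, Imp3 and Npm1, both were below (25.3%). It had 12 higher and 0 lower members at an unadjusted p under 0.05, beside 6.98% and 8.94% of all tested genes, and 9 of the 12 were also among the 10 without the term. It called 0 after adjustment. Single genes moved in both directions, with Nop10 going from 0.81 to 0.37 and Imp3 from 0.00 to −0.39, while the long Heatr1 went from 0.48 to 0.71 and Utp20 from 0.06 to 0.36. By step, the medians became 0.03 for RNA polymerase I, 0.24 for the hub proteins, 0.13 for box C/D, 0.37 for box H/ACA, 0.36 for the small subunit and 0.49 for 60S assembly.

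**Figure D2:**
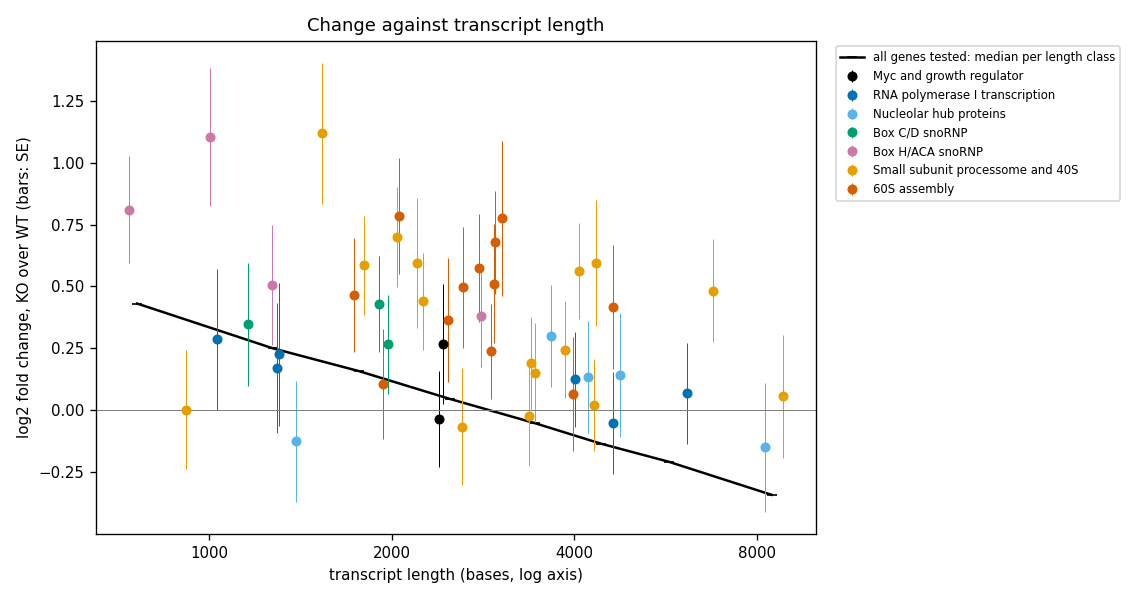
Log2 fold change (KO over WT) of each member against its transcript length in bases on a log axis, with the median of all tested genes in each length class. The medians of all genes decline from 0.43 in the shortest class to −0.34 in the longest, and 41 of the 48 members lie above the median of their class.

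Because Xist and the Y-linked genes separated replicates 1 from replicates 2, KO and WT libraries were also compared within each replicate number. Between replicates 1, 34 of 48 members were higher in KO, with a median log2 difference of 0.31, beside 49.8% of all tested genes. Between replicates 2, 41 were higher, with a median of 0.34, beside 51.2%. The steps held to this in unequal degree. The box H/ACA median was 0.90 between replicates 1 and 0.39 between replicates 2, and that of 60S assembly 0.60 and 0.38. The small subunit genes had 0.29 and 0.37, and box C/D 0.32 and 0.28. RNA polymerase I genes, at 0.17 and −0.05, and the hub proteins, at −0.14 and 0.37, changed sign between the numbers. These differences rest on 1 library a side and have no test.

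**Figure D3:**
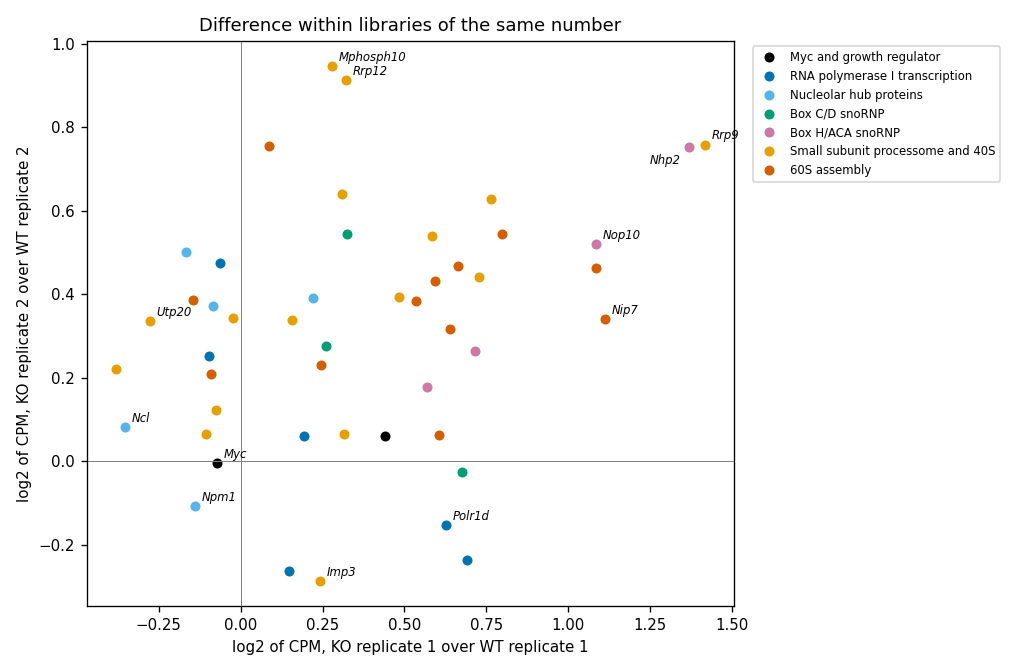
Log2 difference of each member between KO and WT within replicates 1 and within replicates 2. Most members lie above 0 on both axes, the box H/ACA genes reach further between replicates 1, and the RNA polymerase I and hub genes scatter around 0 on 1 of the axes.

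Levels were compared between members by FPKM, the fragment count scaled by transcript length and library size, which the deposited tables give. The mean over the 4 libraries ran from 5.71 FPKM (Rrp1b) to 365 FPKM (Npm1), with a median of 19.3 FPKM beside 9.88 FPKM for all tested genes, and 38 members exceeded 10 FPKM. Npm1 stood alone at 413 and 359 FPKM (WT) against 343 and 346 FPKM (KO). Polr1d followed with 92.0 and 95.3 FPKM (WT) against 139.8 and 90.9 FPKM (KO), and Nop10 with 68.5 and 79.7 FPKM (WT) against 134 and 118 FPKM (KO). Fbl had 83.9 and 93.8 FPKM (WT) against 124 and 95.0 FPKM (KO), and Pa2g4 87.4 and 84.0 FPKM (WT) against 109.7 and 90.5 FPKM (KO). The ranges of these last 4 overlap, so their order is not fixed by these libraries. Myc lay at 27.8 and 30.8 FPKM (WT) against 24.5 and 31.7 FPKM (KO). Large scaffold members such as Utp20, at 5.74 and 5.59 FPKM (WT) against 4.38 and 7.28 FPKM (KO), were among the lowest. No member differed more than 2-fold within a group, the widest ratio being 1.69 between the KO libraries of Polr1d.

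**Figure D4:**
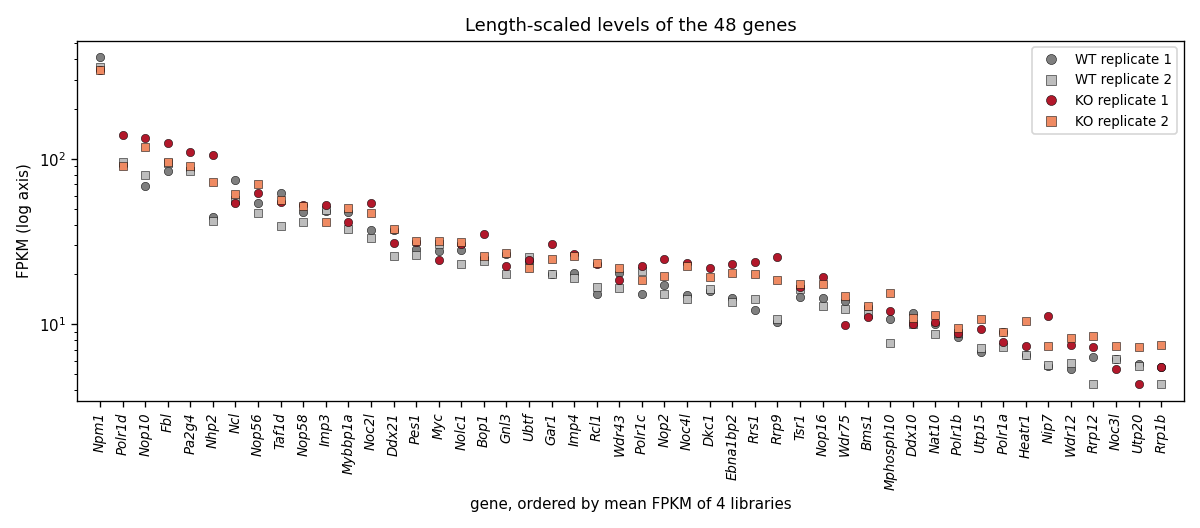
FPKM of the 48 members in each library on a log axis, ordered by mean level. Npm1 is the highest at a mean of 365 FPKM and Rrp1b the lowest at 5.71 FPKM, and WT and KO points lie close together for most members.

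Promoter letters were read for the 250 bases before the start of each gene, from the RefSeq promoter table (GRCm38.p6), which holds 42 of the 48 members and not Myc, Npm1, Fbl, Rrp12, Rrs1 or Bop1. The E-box CACGTG, a motif that Myc-Max dimers bind and its own reverse complement, was found in 2 of the 42 (4.76%), beside 9.88% of tested genes. Counted by promoter, since a gene can have several, it was in 2 of the members' 51 (3.92%) and in 6.02% of all promoters in the table. CCGGAAG, a core bound by ETS factors, was found on either strand in 10 of 42 (23.8%), beside 15.7% of tested genes, and by promoter in 10 of 51 (19.6%), beside 6.91% of all. The 10 had a median log2 fold change of 0.49 and the other 32 of 0.26, while over tested genes the medians were 0.14 with the motif and −0.01 without. With the length term the members' medians were 0.41 and 0.28. GGGCGG, the GC box, was found in 27 (64.3%), beside 63.0% of tested genes. CACGCG or its complement was found in 7 (16.7%), beside 16.3%. AAGATGGC, a YY1 motif, was found in 1 and TATAAA in 2, while the NRF1 consensus was found in 0, beside 2.43%, 8.27% and 1.84% of tested genes. All were searched on both strands. These matches describe letters and not binding, and sites after the start or in introns were not searched. Both E-box windows are printed because Myc-Max dimers bind that motif, though not they alone. The 6 ETS-type windows are printed because Nhp2, Nip7, Mphosph10, Gar1, Nop2 and Heatr1 had the highest log2 fold changes among members that hold CCGGAAG or its complement. Each runs 5′ to 3′ on the gene's strand with the motif in capitals.
Imp4 (chr1:34439696-34439725, plus strand): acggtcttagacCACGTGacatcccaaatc
Nop2 (chr6:125131811-125131840, plus strand): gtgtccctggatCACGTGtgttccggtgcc
Nhp2 (chr11:51619739-51619767, plus strand): cacttgaaaacCCGGAAGtgatgtcggag
Nip7 (chr8:107056763-107056791, plus strand): gctttcggtccCCGGAAGtccgccacggt
Mphosph10 (chr7:64392237-64392259, minus strand): ttggcgtactgCTTCCGGccggc
Gar1 (chr3:129831422-129831450, minus strand): gcgccgccacaCTTCCGGaaacgtcgcgt
Nop2 (chr6:125131834-125131862, plus strand): cggtgccgcggCCGGAAGaggcggggcgt
Heatr1 (chr13:12395348-12395374, plus strand): gtagtgagaagCCGGAAGttcctatga
Nop2 holds both motifs, and its printed windows overlap without the motifs doing so. Imp4 and Nop2 had log2 fold changes of 0.44 and 0.50.

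Several members are also hosts of snoRNA genes, which lie in their introns and are released when the host RNA is spliced. By the GENCODE M21 annotation 8 of 48 members (16.7%) contain 29 snoRNA genes, beside 210 of 11916 tested protein-coding genes (1.76%). Taf1d contains 8, Nop56 5, Nop58 4, Ncl, Gnl3 and Wdr43 3 each, Tsr1 2 and Dkc1 1. The host members had a median log2 fold change of 0.18 and the other 40 of 0.36. With the length term these were 0.18 and 0.31. Tsr1, a GTPase-like factor of late 40S maturation, shares 1240 of its 3837 exon bases with Srr on the opposite strand. The snoRNAs themselves are not polyadenylated and were not measured here.

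The other genes of the pathway, from lists that share no member with the 48, had the same direction at their medians, and edgeR, limma and DESeq2 called 0 of them. In the order given here, 2, 3, 4, 8 and 3 genes of the 5 lists were higher at an unadjusted p under 0.05 by edgeR, and 1, Gnl3l, was lower, beside 7.08% higher and 8.69% lower of all tested genes. The 4 of 47 small subunit factors are close to that share. With the length term the counts were 1, 1, 4, 6 and 4 higher, and 1 of the 60S factors was lower. The shares of all tested genes were then 6.98% and 8.94%. Of 17 other RNA polymerase I and rDNA factors, 14 were above 0 (median 0.31, and 0.10 with the length term). Polr2f and Polr2l, small subunits common to the nuclear RNA polymerases, led them, Polr2f with 28.9 and 32.6 CPM (WT) against 68.6 and 43.3 CPM (KO) and Polr2l with 20.6 and 23.8 CPM (WT) against 51.8 and 28.9 CPM (KO). With the length term the log2 fold change of Polr2f went from 0.86 to 0.34 and that of Polr2l from 0.86 to 0.67. Of 12 other snoRNP factors, 11 were above 0 (median 0.45, and 0.30 with the length term), led by the particle assembly ATPases Ruvbl1 at 17.5 and 23.7 CPM (WT) against 43.4 and 30.1 CPM (KO) and Ruvbl2 at 43.9 and 58.0 CPM (WT) against 93.4 and 67.1 CPM (KO). Of 47 other small subunit factors, 41 were above 0 (median 0.31). In 27 both KO libraries were above both WT libraries, beside 25.5% of all tested genes. Bysl, a late 40S factor, had 21.1 and 19.98 CPM (WT) against 48.5 and 34.3 CPM (KO) (log2 fold change 1.01, SE 0.25), and Bud23, an 18S rRNA methyltransferase, 23.9 and 30.6 CPM (WT) against 65.6 and 41.1 CPM (KO). Of 57 other 60S factors, 46 were above 0 (median 0.22), and in 28 both KO libraries were above, beside the same 25.5%. The helicase gene Ddx24 had 69.3 and 71.6 CPM (WT) against 121 and 113 CPM (KO), and Gnl3l, a relative of Gnl3, went the other way at 49.9 and 43.6 CPM (WT) against 25.3 and 31.6 CPM (KO). Of 18 genes of the RNA exosome and rRNA trimming, 16 were above 0 (median 0.41, and 0.26 with the length term), with Exosc8 at 12.9 and 14.8 CPM (WT) against 30.7 and 20.6 CPM (KO) and Exosc6 at 14.4 and 15.2 CPM (WT) against 38.7 and 20.8 CPM (KO).

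Myc's partners and antagonists did not share a direction. Of 21, 9 were above 0 and 12 below, with a median of −0.15 that became 0.14 with the length term, and edgeR and DESeq2 called 0. At an unadjusted p under 0.05 by edgeR 1 was higher, Mlx, and 3 lower, Mnt, Mycl and Mga, again beside 7.08% and 8.69% of all tested genes. With the length term 2 were higher and 2 lower at that p, beside 6.98% and 8.94%. Mnt, a Max-binding repressor, had 49.3 and 32.4 CPM (WT) against 17.6 and 24.9 CPM (KO) (log2 fold change −0.94, SE 0.30), and both KO libraries lay below WT. Mycl, a paralog of Myc, had 54.7 and 40.7 CPM (WT) against 32.4 and 24.3 CPM (KO) (log2 fold change −0.75, SE 0.26). Max itself, the obligate partner, had 135 and 138 CPM (WT) against 174 and 181 CPM (KO). The 33 Myc targets outside the nucleolus had a median of 0.27, with 25 above 0, 16 with both KO libraries above both WT libraries, and 11 higher at an unadjusted p under 0.05. Over all tested genes these shares were 50.3%, 25.5% and 7.08%. Odc1, the first enzyme of polyamine synthesis, had 149 and 142 CPM (WT) against 325 and 249 CPM (KO) (log2 fold change 0.98, SE 0.24, edgeR adjusted p = 0.21), and Srm, spermidine synthase, 26.9 and 22.5 CPM (WT) against 65.0 and 42.4 CPM (KO) (log2 fold change 1.12, SE 0.27, edgeR adjusted p = 0.211). DESeq2 called both of these and no other gene of the 33, beside 1.83% higher and 3.14% lower of all tested genes. Among the proliferation genes edgeR called 0, with 0 at an unadjusted p under 0.05 and 0 by DESeq2. Of these genes 13 of 20 were above 0, but the median was 0.66 between replicates 1 and −0.20 between replicates 2. Cdc20, which activates the anaphase-promoting complex, had 19.9 and 57.6 CPM (WT) against 86.2 and 54.9 CPM (KO), and cyclin A2 (Ccna2) 62.2 and 155 CPM (WT) against 196 and 157 CPM (KO), so WT replicate 1 was the low library in both.

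**Figure D5:**
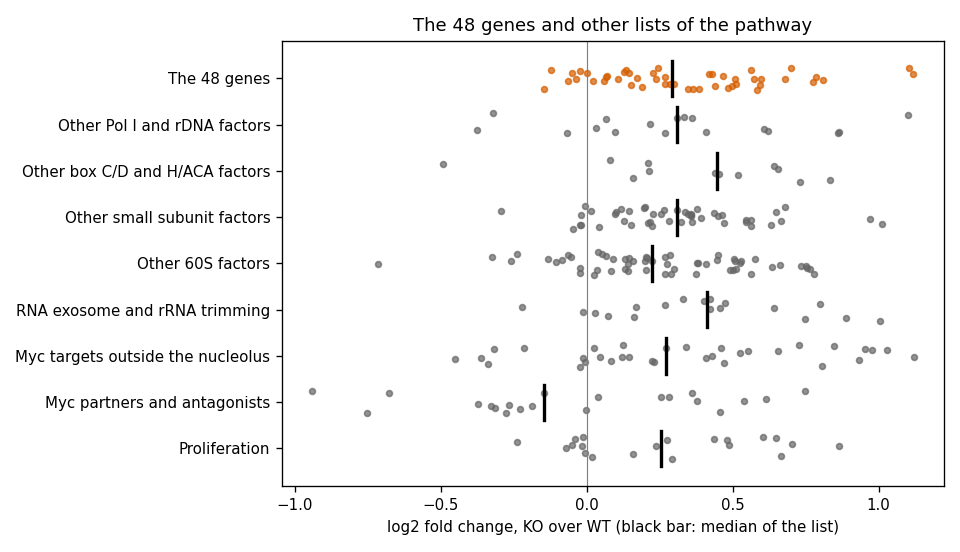
Log2 fold change (KO over WT) of each gene in the 48 members and in the other lists, with the median of each list as a bar and a line at no change. The medians of the nucleolar lists lie between 0.22 and 0.45, that of Myc partners and antagonists at −0.15.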

How the data were processed

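Bowtie2 2.2.5, RSEM 1.2.12 and the build mm10 are named, with no role or order, in the submitters' processing notes. Per the file headers, the authors deposited RSEM expected counts per gene and, in the same tables, FPKM. The sources used here do not state strandedness. RSEM shares reads among similar genes: 41 of the 48 members had whole counts in all 4 libraries, and Rrp1b, Polr1b, Dkc1, Noc2l, Nip7, Tsr1 and Ebna1bp2 did not.

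The tables were joined by gene identifier with pandas 2.3.3, and 1 row per library without a gene was left out, at most 0.000233% of counts. All 48 members were listed in all 4 libraries, with at least 235 counts each. Expected counts were rounded to whole numbers and tested in R 4.3.3 with edgeR 4.0.16 (quasi-likelihood, TMM scaling, filterByExpr, genotype as the only term), which left 12769 genes. Residual degrees of freedom were 2, and the biological coefficient of variation 32.5%. Adjusted p is Benjamini-Hochberg over all 12769 genes, called under 0.05. CPM uses TMM-scaled library sizes. The chi-square between replicates, per degree of freedom, was 124 (WT) and 62.2 (KO), above sampling noise. Alternatives were DESeq2 1.42.0, limma 3.58.1 on log2(FPKM + 1) and log2(FPKM + 0.1), other scalings and filters, a block on the replicate number and leaving out each library. The members and lists were chosen with earlier results of these data known, so their counts and medians are descriptions. Values per library are given for Myc, the 3 genes of smallest p in each step, the 5 of highest FPKM and the 2 of smallest p in each other list, and others named were chosen after their values were seen. Protein sequences were not analysed here.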

Additional observations from a re-analysis of the deposited data

How the results depend on the processing

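Over all genes, 1 was called higher and 0 lower. DESeq2, run on all listed genes with its own filter, gave 235 and 432, of which 234 and 401 are among the 12769 genes that edgeR tested, and edgeR without a filter gave 19 and 8. Library sizes alone, both limma fits and the length term gave 0 higher. Leaving out 1 library, so that 1 group's lone library is assumed to vary like the other group's, gave 0 to 72 higher and 0 to 300 lower, the 72 and 300 coming without WT replicate 2. Such a fit also sets 1 replicate number against both, so that the groups differ in their share of libraries with Xist and with Ddx3y. The replicate numbers are not stated to pair libraries, and deviations of same-numbered libraries correlated at −0.12. With the replicate number as a block 46 genes were called higher and 70 lower, and with the crossed pairing 65 and 99. The length term and the crossed block were added after seeing the data.

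Among the 48 members, 38 to 43 were above 0 in all settings except the crossed block, for which members were not counted, and 0 were called except 2 with DESeq2 (Nhp2 1.10 and Rrp9 1.11 on the log2 scale). Their median was 0.22 to 0.39 with 1 library left out, lowest without KO replicate 1 and highest without KO replicate 2. With the length term and 1 library left out it was 0.21 to 0.35. Step medians with 1 library left out ran over −0.083 to 0.30 for hub proteins, 0.18 to 0.42 for box C/D and 0.042 to 0.19 for RNA polymerase I. With the length term the median was 0.051 for Myc and Pa2g4, 0.13 for box C/D, 0.37 for box H/ACA and 0.029 for RNA polymerase I.

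The members that changed sign in at least 1 setting had main log2 fold changes between −0.15 (Ncl) and 0.29 (Polr1d). With 1 library left out their log2 fold changes ran over Myc −0.15 to 0.074, Ncl −0.32 to 0.050, Gnl3 −0.068 to 0.31, Mybbp1a −0.012 to 0.30, Polr1a −0.058 to 0.22, Polr1c −0.015 to 0.50, Polr1d −0.13 to 0.61, Ubtf −0.20 to 0.093, Taf1d −0.097 to 0.51, Ddx21 −0.083 to 0.42, Ddx10 −0.11 to 0.076, Utp20 −0.26 to 0.32, Wdr75 −0.30 to 0.14, Noc3l −0.093 to 0.22, Bms1 −0.027 to 0.076 and Imp3 −0.27 to 0.24. With the length term these were Ncl 0.17, Gnl3 −0.027, Polr1c −0.030, Polr1d −0.083, Ubtf 0.088, Taf1d −0.088, Ddx10 0.011 and Imp3 −0.39. With limma on log2(FPKM + 0.1) Utp20 had −0.0036. Bms1 had −0.0088 with library size alone, −0.014 with at least 50 counts in 2 libraries, −0.0088 with limma on log2(FPKM + 1) and −0.0096 with the smaller pseudocount. In the same order Imp3 had −0.044, −0.038, −0.054 and −0.055, and it had −0.015 with DESeq2 size factors, −0.0033 with DESeq2 and −0.021 with the block. The causes of these changes were not tested. With 2 libraries a group, small differences between genotypes were not detectable.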

Other observations

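Impaired ribosome assembly is known to stabilise p53, the product of Trp53, through ribosomal proteins that bind Mdm2, so its target genes were read as a further readout. Of 16 genes of nucleolar stress and the p53 response, 15 were tested. Of these, 5 were above 0 and 10 below, with a median log2 fold change of −0.07, and edgeR called 0. At an unadjusted p under 0.05 by edgeR 0 were higher and 3 lower, Trp53inp1, Btg2 and Gdf15, beside 7.08% and 8.69% of all tested genes, and DESeq2 called Trp53inp1. With the length term 1 was higher and 5 lower at that p, and the median was −0.14. Trp53 itself had 78.5 and 95.7 CPM (WT) against 94.0 and 83.1 CPM (KO), and Mdm2 57.2 and 50.5 CPM (WT) against 40.3 and 64.7 CPM (KO), both overlapping. The cell cycle inhibitor gene Cdkn1a had 237 and 177 CPM (WT) against 135 and 155 CPM (KO) (log2 fold change −0.51, SE 0.24). Trp53inp1 had 29.1 and 21.0 CPM (WT) against 9.97 and 12.4 CPM (KO) (edgeR adjusted p = 0.215), and Btg2, an antiproliferative gene, 135 and 67.2 CPM (WT) against 53.6 and 42.8 CPM (KO). In these 3 the KO libraries were the 2 lowest. That held for 5 of the 15 tested genes, and 2 had both KO libraries above both WT libraries. Over all tested genes these shares were 24.6% and 25.5%. Bax and Ccng1, also p53 targets, had the opposite order, Bax at 37.1 and 31.9 CPM (WT) against 48.7 and 41.9 CPM (KO) and Ccng1 at 104 and 93.2 CPM (WT) against 120.5 and 140.0 CPM (KO).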
